A study of Mus musculus with 15 samples.

Results

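The 2 mature microRNAs described here, mmu-miR-21a-5p and mmu-miR-21a-3p, are cut from the same hairpin, and they were taken by name from a table of 1915 mature mouse miRNAs. Both are among the 351 miRNAs that passed the filter on low counts and were tested. miR-21a-3p passed it only through treated libraries, as described below. A miRNA gene is transcribed as a hairpin whose stem is trimmed by Drosha and Dicer into a short duplex, and Argonaute keeps a single strand of it as a guide that pairs with messenger RNAs through its seed, the bases near its 5′ end. miR-21 is known for its induction by AP-1 and STAT3 in inflamed and transformed tissue, and its 5p arm is the usual guide strand. The 3p arm is the strand that is mostly discarded, and the series title names it as over-expressed in acute pancreatitis.

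The libraries came from acini, the secretory units of the exocrine pancreas, of C57BL/6 mice aged 7 to 8 weeks. Caerulein, a peptide that activates the cholecystokinin receptor, was given at 100 nM, a dose the design text calls pathological, or at 100 pM, which it calls physiological. Taurolithocholic acid sulfate (TLC-S), a bile acid salt that damages acini, was given at 250 uM or at 62.5 uM. Control acini received no drug. Each of these 5 groups had 3 libraries, 15 in all, and the labels name the strain with no transgene or deletion. The protocol in the labels describes pools of RNA from independent acinar preparations without saying how they map to libraries. In the models fitted here a p-value sets a difference against the spread between libraries within groups, estimated over all 5 groups. That spread may therefore be technical. The labels give no length of treatment.

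The members differ in sequence as follows, written 5′ to 3′ with the seed (bases 2 to 8) in capitals. They are shown because the counts of each arm rest on these letters, and miR-21b and miR-21c because they are the mouse miRNAs named like the 5p arm. Sequences and positions are those of RefSeq on GRCm38.p6.
miR-21a-3p: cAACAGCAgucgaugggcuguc
miR-21a-5p: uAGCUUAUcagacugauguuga
miR-21b: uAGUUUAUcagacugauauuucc
miR-21c: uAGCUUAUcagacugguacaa

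Both arms are 22 bases long, and 59.1% of the bases of miR-21a-3p are G or C, against 36.4% in miR-21a-5p. The 3p arm lies at chr11:86584082-86584103 and the 5p arm at chr11:86584120-86584141, both on the minus strand, separated by a loop of 16 bases. The hairpin of 92 bases lies in exon 12 of Vmp1 on the same strand in GENCODE M21, within the part annotated as UTR. Vmp1 encodes a membrane protein of autophagy known to be induced in acinar cells during pancreatitis. In the fold of lowest energy that RNAfold gave for the hairpin (-46.2 kcal/mol), 19 bases of each arm paired with the other arm. Among 1679 mature mouse miRNA names in the RefSeq table, 0 others carried the seed of miR-21a-3p, and miR-21c alone shared that of miR-21a-5p.

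Reads that fit several precursors can be divided between them, so the copies named miR-21b and miR-21c were examined for reads shared with the 5p arm. miR-21b matched miR-21a-5p at 18 of 22 positions counted from the 5′ end, and miR-21c at 16 of 21. miR-21b had 28 counts over the 15 libraries and miR-21c had 10, against 602320 for miR-21a-5p. The unrounded estimates per precursor summed to 27.7 and 10.2, or 0.00459% and 0.00169% of the 5p counts. Each arm is listed under 1 precursor, and the deposited estimate per precursor was exactly whole (tolerance 0) for miR-21a-3p in 15 of 15 libraries and for miR-21a-5p in 4 of 15.

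Library totals ran from 535473 counts in Caerulein 100 nM replicate 2 to 5087728 in replicate 3 of that group. Acinar miRNAs were abundant throughout: miR-148a-3p, miR-217-5p, miR-216a-5p and miR-216b-5p together made up 292547 to 635431 CPM of each treated library and 238378 to 787353 CPM of each Control library. Control replicate 3 stood apart in miR-148a-3p, which took 50.5% of its counts, against 17.6% and 18.7% in Control replicates 1 and 2. CPM here means counts per 1e6 counts of a library after TMM scaling, edgeR's correction for libraries in which a few miRNAs take up many of the reads.

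The arms differed widely in abundance. In bulk RNA fewer cells of a type and less RNA per cell cannot be told apart, which holds for all levels given here. miR-21a-5p averaged 19080 ± 4571 CPM (SD over 15 libraries) and ranked 11th of the 351 miRNAs by mean level. It held 1.89% of the counts of a library on average and ranked between 10th and 17th in each. miR-21a-3p averaged 7.62 ± 6.45 CPM and ranked 294th. It was seen in every library, with 1 to 136 counts, 281 counts in all. The 3p arm also varied more: its coefficient of variation over the 15 libraries was 84.7%, against 24.0% for the 5p arm, and its highest library stood 53.1-fold above its lowest, against 2.68-fold for the 5p arm.

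**Figure D1:**
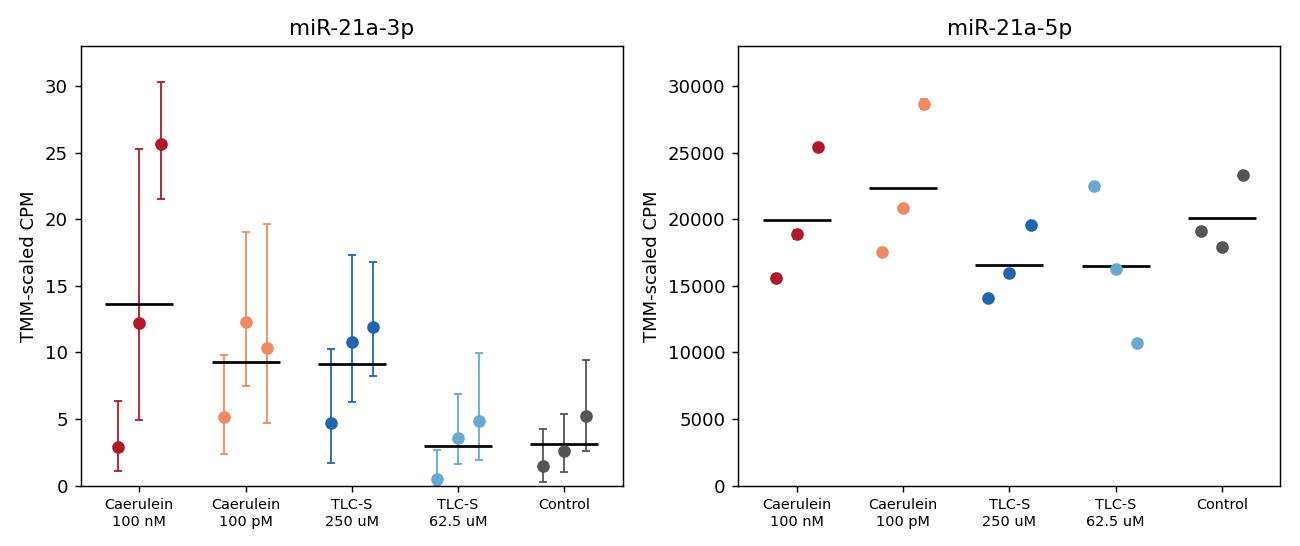
TMM-scaled CPM of miR-21a-3p (left) and miR-21a-5p (right) in each of the 15 libraries, by group. Bars are exact Poisson 95% intervals from the counts (smaller than the points on the right) and black lines are group means. The 3p arm exceeds the highest Control library, 5.26 CPM, in 6 of 12 treated libraries, a number that depends on the scaling. The 5p groups overlap.

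Counts of miR-21a-3p were 6, 7 and 136 in the Caerulein 100 nM libraries, which scaled to 2.94, 12.2 and 25.6 CPM. They were 9, 20 and 9 with Caerulein 100 pM, or 5.16, 12.3 and 10.3 CPM. With TLC-S 250 uM they were 6, 17 and 33, or 4.72, 10.8 and 11.9 CPM. After TMM scaling, 2 of 3 libraries in each of these groups lay above every Control library and the lowest lay within the Control range. With TLC-S 62.5 uM the counts were 1, 9 and 7, or 0.483, 3.62 and 4.82 CPM. Control acini had 3, 7 and 11 counts, or 1.45, 2.62 and 5.26 CPM. No TLC-S 62.5 uM library exceeded the highest Control library in CPM. The lowest of them, with a single count, was the lowest of all 15. These placings depend on the scaling, since Control replicate 3 had the lowest TMM factor, 0.735. There miR-21a-3p made up 0.000386% of the library total, the highest share in Control. All Caerulein 100 pM and TLC-S 250 uM libraries exceeded this share (lowest 0.000516% and 0.000512%). TLC-S 62.5 uM replicates 2 and 3 did too (0.000394% and 0.000552%). Replicate 1 of Caerulein 100 nM (0.000307%) and of TLC-S 62.5 uM (5.03e-05%) did not.

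Most of these values rest on few counts, which sets how well a single library is known. The 7 counts of Caerulein 100 nM replicate 2 allow 4.92 to 25.2 CPM (exact Poisson 95% interval, counting error only), whereas the 136 counts of replicate 3, the most deeply sequenced library, allow 21.5 to 30.3 CPM. Summed over the libraries of a group and divided by their summed totals without TMM scaling, miR-21a-3p reached 19.7 RPM with Caerulein 100 nM (95% interval 16.6 to 23.1), 7.67 with Caerulein 100 pM (5.43 to 10.5), 9.96 with TLC-S 250 uM (7.52 to 12.9) and 3.07 with TLC-S 62.5 uM (1.79 to 4.91), against 3.02 in Control (1.87 to 4.62). Of the 149 counts behind the Caerulein 100 nM value, 136 came from replicate 3; without that library the other 13 gave 5.22 RPM (2.78 to 8.93), an interval that overlaps that of Control. These intervals leave out the spread between libraries, which was wide: the SD of the Caerulein 100 nM group was 11.4 CPM around a mean of 13.6.

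The means of miR-21a-3p ran in the order Caerulein 100 nM (13.6 ± 11.4 CPM, SD, n = 3), Caerulein 100 pM (9.27 ± 3.69), TLC-S 250 uM (9.16 ± 3.88), Control (3.11 ± 1.95) and TLC-S 62.5 uM (2.97 ± 2.24). Neighbours in this order overlapped in CPM in every case. The one pair of compared groups without overlap in CPM was Caerulein 100 pM and TLC-S 62.5 uM. There the lowest of the first stood at 5.16 CPM and the highest of the second at 4.82 CPM. In that comparison 9.12% of all 351 miRNAs had their 3 libraries all above the other 3, so such a separation was common there. As shares of library totals this pair overlapped, with 0.000516% in Caerulein 100 pM replicate 1 and 0.000552% in TLC-S 62.5 uM replicate 3. By those shares the Caerulein 100 pM and TLC-S 250 uM groups each lay wholly above Control. How many other miRNAs did so by those shares was not counted.

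Against Control, miR-21a-3p was higher on the log2 scale by 2.18 with Caerulein 100 nM (SE 0.71, 95% interval 0.73 to 3.64), by 1.55 with Caerulein 100 pM (SE 0.74, 0.023 to 3.07) and by 1.58 with TLC-S 250 uM (SE 0.72, 0.098 to 3.07). With TLC-S 62.5 uM the difference was -0.10 (SE 0.80, -1.74 to 1.54). None passed edgeR's quasi-likelihood test after Benjamini-Hochberg adjustment over the 351 miRNAs, with adjusted p = 0.432, 0.722, 0.999 and 1.000 in that order. The share of all miRNAs called at 0.05 in these comparisons was 0%, 0%, 0% and 0.57%, so in the first 3 comparisons with Control edgeR called no miRNA at all, and DESeq2 called 1, 0 and 0, none of them an arm of miR-21a. The 4 comparisons share the same 3 Control libraries.

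Before adjustment the edgeR p of miR-21a-3p was 0.00492, 0.0469, 0.0376 and 0.901, beside a background of 3.42%, 6.84%, 1.14% and 7.41% of miRNAs under 0.05 in the same comparisons. By size, its difference was the highest of 351 with Caerulein 100 nM, the 4th highest with Caerulein 100 pM and the 2nd highest with TLC-S 250 uM, and it was 206th with TLC-S 62.5 uM. By edgeR p it ranked 4th, 22nd, 3rd and 312th. The filter asks for 10 counts, scaled to a library of median depth, in as many libraries as a group holds. No Control library reached this for miR-21a-3p, so it was tested only because treated libraries did. Its ranks and differences against Control are therefore not independent of the filter. The biological coefficient of variation that edgeR fitted was 0.505 for miR-21a-3p, against 0.285 in common over all miRNAs. The value with Caerulein 100 nM depended on 1 library, since without replicate 3 of that group it was 1.00 (SE 0.89, edgeR adjusted p = 0.931).

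Between treatments, miR-21a-3p was higher by 1.68 with TLC-S 250 uM than with TLC-S 62.5 uM (SE 0.74, 95% interval 0.15 to 3.21, edgeR adjusted p = 0.467), where 1.14% of miRNAs were called. It was higher by 1.65 with Caerulein 100 pM than with TLC-S 62.5 uM (SE 0.76, 0.080 to 3.22, edgeR adjusted p = 0.352), where 1.42% were called. The pathological and physiological doses of caerulein differed by 0.64 (SE 0.67, -0.74 to 2.02, edgeR adjusted p = 0.986), and Caerulein 100 nM and TLC-S 250 uM by 0.60 (SE 0.65, -0.74 to 1.94, edgeR adjusted p = 1.000). edgeR called 0% of miRNAs in both, with 6 and 8 miRNAs under an unadjusted p of 0.05, and DESeq2 called 0 and 1. The 2 intervals allow differences of more than 1 on the log2 scale in favour of the first-named group, and both estimates turned negative, -0.53 and -0.61, without Caerulein 100 nM replicate 3. Over all 5 groups the edgeR F statistic of miR-21a-3p was 3.99 (edgeR adjusted p = 0.432), with 0.855% of miRNAs called. Without the filter on low counts, with 867 miRNAs tested, it was 5.37 with edgeR adjusted p = 0.0309, past the threshold. The share of the 867 that passed this F test was not counted, and the 0.855% is that of the filtered fit. With the filter kept, the F statistic fell to 2.54 without Caerulein 100 nM replicate 3. Over all single left-out libraries the edgeR adjusted p of this test ran from 0.131 to 0.968.

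**Figure D2:**
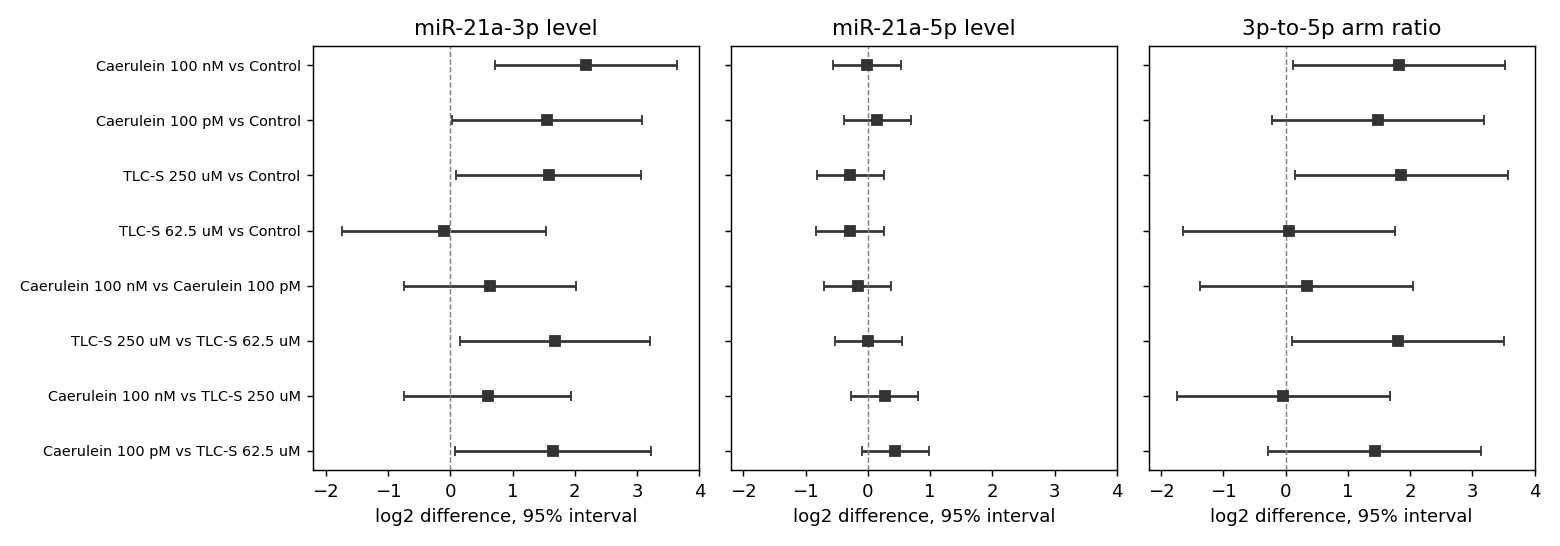
Log2 difference of the first-named group minus the second, with 95% intervals, for the level of miR-21a-3p (left, edgeR), the level of miR-21a-5p (middle, edgeR) and the 3p-to-5p arm ratio (right, limma) in 8 comparisons. The 3p level and the arm ratio lie above 1 in the same 5 comparisons, while the 5p level stays between -0.29 and 0.44, and no value passed after adjustment.

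The abundant arm differed little. miR-21a-5p stood at 15556, 18854 and 25388 CPM with Caerulein 100 nM, at 17516, 20860 and 28632 CPM with Caerulein 100 pM, at 14117, 15999.5 and 19556 CPM with TLC-S 250 uM, and at 22474, 16238 and 10687 CPM with TLC-S 62.5 uM, against 19141, 17905 and 23281 CPM in Control. The groups overlapped in all 8 comparisons. In each TLC-S group 2 libraries lay below every Control library in CPM. As shares of library totals only TLC-S 250 uM replicate 1 (1.53%) and TLC-S 62.5 uM replicate 3 (1.22%) lay below the lowest Control share (1.71%). Each library held at least 10776 counts of this arm, and the Poisson 95% interval of that lowest count runs only from 18499.9 to 19214 CPM, much narrower than the spread between libraries.

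The log2 differences of miR-21a-5p against Control were -0.013 with Caerulein 100 nM, 0.15 with Caerulein 100 pM, -0.28 with TLC-S at 250 uM and -0.29 with TLC-S at 62.5 uM, each with an SE of 0.26. The edgeR adjusted p was 0.993, 0.942, 0.999 and 0.880. The intervals ran from -0.55 to 0.53, -0.39 to 0.69, -0.82 to 0.26 and -0.83 to 0.25, so a change of 1 on the log2 scale lay outside all of them. The signs with both doses of caerulein turned over when library totals replaced TMM (0.074 and -0.086) and carry no direction. Between treatments the differences ran from -0.16 to 0.44, and over the 5 groups the F statistic was 1.06 (edgeR adjusted p = 0.967). Across the 15 libraries the levels of the arms were only loosely related (Pearson r = 0.25, Spearman rho = 0.34 on log2 CPM, a description). The other strand of its own hairpin ranked 90th among the tested miRNAs by likeness to miR-21a-3p.

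The share of the 3p arm among the counts of the hairpin compares the strands within a library and so does not depend on scaling. It was 0.0189%, 0.0649% and 0.101% with Caerulein 100 nM, 0.0295%, 0.0590% and 0.0361% with Caerulein 100 pM, 0.0335%, 0.0675% and 0.0610% with TLC-S 250 uM, and 0.00215%, 0.0223% and 0.0451% with TLC-S 62.5 uM, against 0.00759%, 0.0146% and 0.0226% in Control. All libraries of the Caerulein 100 pM and TLC-S 250 uM groups lay above every Control library, and those of the other treated groups overlapped Control. Among the 89 hairpins with both arms tested, the ratio of 3p to 5p counts separated upward from Control in this way for 7.87% with Caerulein 100 pM and for 3.37% with TLC-S 250 uM. In other terms, 991 counts of the 5p arm stood beside each count of the 3p arm in Caerulein 100 nM replicate 3, and 46547 beside the single 3p count of TLC-S 62.5 uM replicate 1. The Clopper-Pearson 95% intervals are wide where counts are few: that of the last library reached 0.0120%, and that of Control replicate 3 ran from 0.0113% to 0.0404%.

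**Figure D3:**
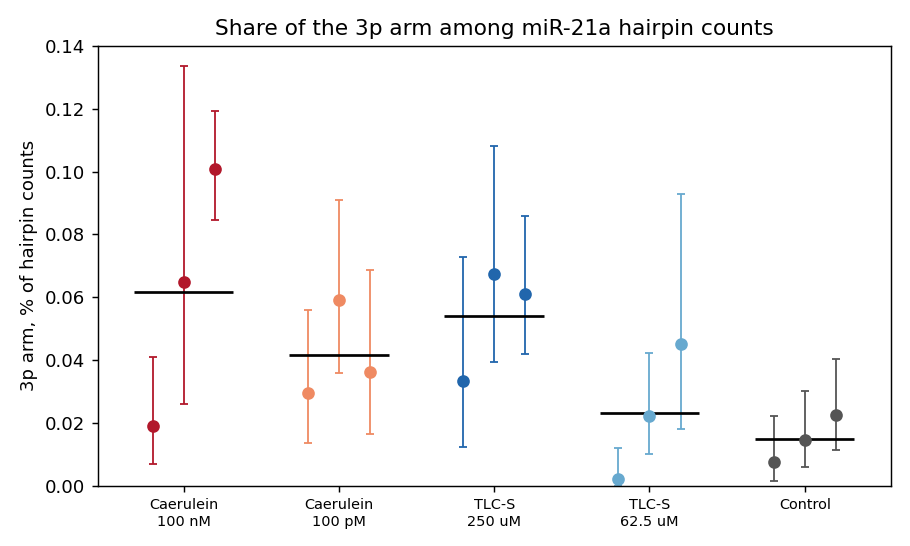
Share of miR-21a-3p among all counts of the miR-21a hairpin (percent) in each library, by group, with exact Clopper-Pearson 95% intervals and the group mean as a black line. The Caerulein 100 pM and TLC-S 250 uM libraries all lie above the highest Control library, 0.0226%.

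As log2 of 3p over 5p counts, after 0.5 was added to each, the arm ratio averaged -10.9 with Caerulein 100 nM, -11.2 with Caerulein 100 pM, -10.9 with TLC-S 250 uM and -12.7 with TLC-S 62.5 uM, against -12.7 in Control. The ratio was therefore higher than in Control by 1.82, 1.48, 1.86 and 0.054 (SE 0.83 each). None passed limma's moderated test adjusted over the 89 hairpins with both arms tested (adjusted p = 0.839, 0.712, 0.996 and 0.979), and 0% of the hairpins did in any of the 8 comparisons, while 1 to 13 of the 89 had an unadjusted limma p under 0.05. The exact two-sided permutation p for miR-21a alone was 0.2, 0.1, 0.1 and 1, where 0.1 is the smallest that 3 libraries against 3 allow.

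Set beside the other hairpins, the estimate for miR-21a was the highest of the 89 with Caerulein 100 nM and with TLC-S 250 uM, the third highest with Caerulein 100 pM and the 34th with TLC-S 62.5 uM. miR-21a is among the 89 through the same filter on low counts, which its 3p arm passed only through treated libraries. The median over all 89 was 0.018, 0.072, 0.0091 and -0.083 in the same 4 comparisons, which run from Caerulein 100 nM to TLC-S 62.5 uM. Between treatments the ratio was higher by 1.81 with TLC-S 250 uM than with TLC-S 62.5 uM (limma adjusted p = 0.674) and by 1.43 with Caerulein 100 pM than with TLC-S 62.5 uM (limma adjusted p = 0.453). Without TLC-S 62.5 uM replicate 1, the library with a single 3p count, these were 0.68 and 0.30, and without replicate 3 of that group they were 2.63 and 2.26. Caerulein 100 nM differed from Caerulein 100 pM by 0.34 and from TLC-S 250 uM by -0.039.

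By p the hairpins that led the arm ratio were other ones. Against Control they were miR-322 (higher by 1.33), miR-139 (higher by 1.26) and miR-30b (lower, -1.05) with Caerulein 100 nM, and miR-31 (2.19), miR-322 (1.15) and miR-802 (-0.71) with Caerulein 100 pM. With TLC-S 250 uM they were let-7b (-0.88), miR-21a itself and miR-574 (-0.62), and with TLC-S 62.5 uM miR-30d (-1.98), miR-335 (-1.97) and miR-664 (-0.91). None of them passed limma's adjusted test.

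The scarcer strands of the hairpins as a whole were spread evenly around Control. Of the 89 scarcer arms, 50, 46, 41 and 40 were above Control with Caerulein 100 nM, with Caerulein 100 pM, with TLC-S 250 uM and with TLC-S 62.5 uM, and the median log2 differences were 0.069, 0.010, -0.047 and -0.017. No scarcer arm was called against Control by edgeR. Over all 351 miRNAs the corresponding medians were 0.032, 0.010, -0.034 and -0.0099.

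Among the 89 hairpins with both arms tested, miR-21a was the one weighted most strongly to its 5p arm, with a mean log2 ratio of -11.7 ± 1.30 (SD over 15 libraries). The filter on low counts leaves out hairpins whose scarcer arm was too rare to test, which may be more one-sided. miR-99a (-10.5) and let-7g (-10.2) followed it. At the other end, miR-101a (12.0), miR-200c (11.6) and miR-27b (11.4) were weighted most to the 3p arm. Of the 89 hairpins 50 were weighted to the 5p arm and 39 to the 3p arm, and the median distance from equality was 3.91 on the log2 scale. The ratio of miR-21a also varied more over the libraries than most, ranking 5th of 89 by SD (median SD 0.62). Among the 38 hairpins whose scarcer arm averaged 3 to 20 CPM, as that of miR-21a did, it ranked 3rd (median SD 0.83).

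**Figure D4:**
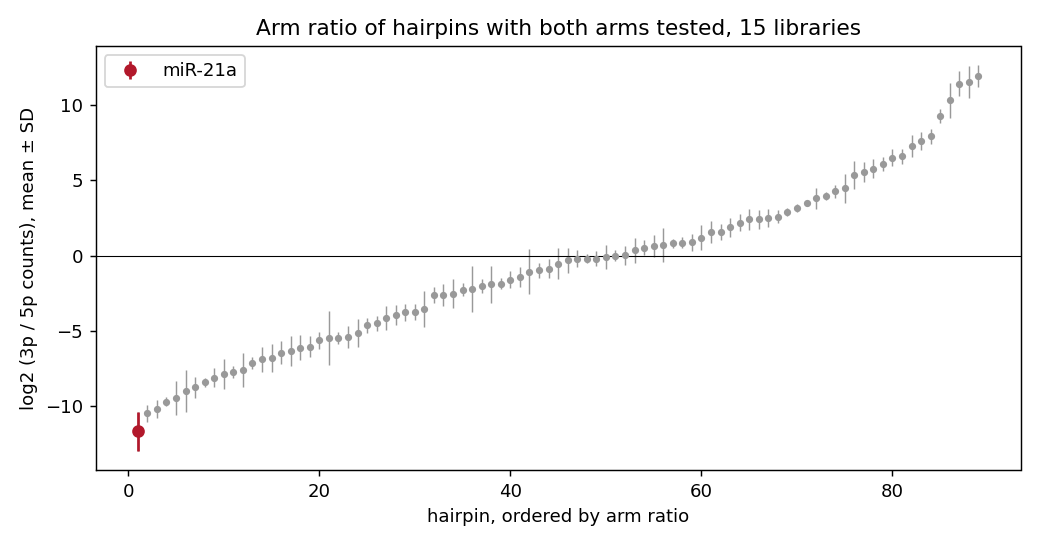
Log2 ratio of 3p to 5p counts for the 89 hairpins with both arms tested, ordered from 5p-weighted to 3p-weighted; points are means and bars SDs over the 15 libraries. miR-21a (red) has the lowest mean, -11.7.

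The miRNAs whose log2 level followed miR-21a-3p most closely over the 15 libraries were miR-30a-3p (Pearson r = 0.89, Spearman rho = 0.84), miR-216b-3p (r = 0.79, rho = 0.80), miR-30e-3p (r = 0.78, rho = 0.79), miR-378b (r = 0.76, rho = 0.79) and miR-669c-5p (r = 0.72, rho = 0.71). With the group means taken out, r was 0.89, 0.76, 0.83, 0.70 and 0.66, so these likenesses were also there between libraries of the same group. They describe these libraries, which share the scaling, and high values are built into the choice of the 5 closest miRNAs. The level of miR-21a-3p bore almost no relation to the depth of a library (r = 0.053, rho = 0.071).

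Several of the closest are 3p strands, and miR-30a-3p and miR-30e-3p share their seed and 21 of 22 bases, so their reads could be split between them. They are shown beside the member because the likeness is of level only: miR-30a-3p matches miR-21a-3p at 2 of 22 positions.
miR-30a-3p: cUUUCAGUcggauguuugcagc
miR-30e-3p: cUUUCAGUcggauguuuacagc
miR-216b-3p: aCACUUACcuguagagauucuu

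miR-30a-3p stood at 104, 138 and 201 CPM with Caerulein 100 nM, 114, 189 and 228 CPM with Caerulein 100 pM, 98.4, 139 and 176 CPM with TLC-S 250 uM and 59.4, 111 and 145 CPM with TLC-S 62.5 uM, against 62.5, 117 and 136 CPM in Control. Its log2 differences against Control were 0.50, 0.74, 0.40 and -0.0035 in the order of those groups, smaller than those of miR-21a-3p, and none passed edgeR's adjusted test. In each of the 5 groups the library with the least miR-21a-3p was also the one with the least miR-30a-3p, and in all 5 it was replicate 1. The same library was also lowest in miR-216b-3p in all 5 groups. How many of all miRNAs were lowest in replicate 1 throughout was not counted.

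**Figure D5:**
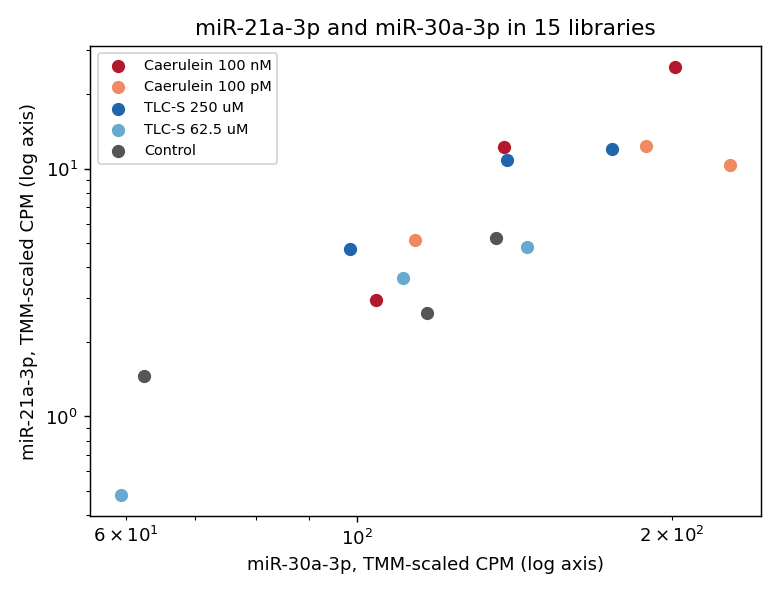
miR-21a-3p against miR-30a-3p in the 15 libraries, TMM-scaled CPM on log axes, coloured by group. The lowest library on both axes is TLC-S 62.5 uM replicate 1 (0.483 and 59.4 CPM), and the highest 3p value is Caerulein 100 nM replicate 3 (25.6 and 201 CPM).

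miR-21a-5p was followed by a different set: miR-192-5p (r = 0.85, rho = 0.80), miR-200a-5p (r = 0.79, rho = 0.78), miR-374b-5p (r = 0.79, rho = 0.78), miR-216a-3p (r = 0.74, rho = 0.66) and miR-23b-3p (r = 0.73, rho = 0.54). Within groups r was 0.84, 0.76, 0.72, 0.68 and 0.69. miR-192-5p and miR-200a-5p are epithelial miRNAs, and miR-216a-3p comes from the acinar miR-216a hairpin. Of these, miR-216a-3p was called in 1 comparison, higher by 1.22 with Caerulein 100 pM than with TLC-S 62.5 uM (SE 0.29, edgeR adjusted p = 0.0345). It stayed called in 17 of 26 alternatives, with adjusted p up to 0.330, and not with library totals (0.85). In that comparison edgeR called 1.42% of all 351 miRNAs, and miR-21a-5p differed by 0.44 (SE 0.26, edgeR adjusted p = 0.474).

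Of the miRNAs known to be induced by inflammation or stress, all 12 on the list were tested. Of them 6, 7, 8 and 8 were above Control with Caerulein 100 nM, with Caerulein 100 pM, with TLC-S 250 uM and with TLC-S 62.5 uM. The median log2 differences were 0.024, 0.17, 0.19 and 0.26, and edgeR called none of the 12, with 0, 0, 0 and 3 under an unadjusted p of 0.05, beside 3.42%, 6.84%, 1.14% and 7.41% of all miRNAs. miR-146a-5p, a brake on NF-kappaB signalling, differed from Control by 0.15, 0.45, 0.29 and 1.00, the last with edgeR adjusted p = 0.229. miR-34a-5p, a target of p53, differed by 0.10, -0.26, 0.0029 and -0.34, and miR-27a-3p by -0.097, -0.030, -0.0028 and 0.14. The single call among the 12 was miR-203-3p, an epithelial miRNA, which was lower with TLC-S 250 uM than with TLC-S 62.5 uM (log2 difference -0.96, SE 0.24, edgeR adjusted p = 0.0449). That call was kept in 4 of 26 alternatives, with the difference between -1.07 and -0.69 and adjusted p up to 0.587. In the same comparison edgeR called 1.14% of all 351 miRNAs. The list had its highest sums with TLC-S 62.5 uM, at 5309 to 6506 CPM, against 4251 to 4731 CPM in Control. miR-146a-5p, miR-155-5p and miR-223-3p are also on the leukocyte list used below, so the sums of these lists are not independent.

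miR-21 is made by many cell types besides acinar cells, so markers of such cells were summed in each library. The 6 leukocyte miRNAs summed to 862 to 1193 CPM with Caerulein 100 nM, 985 to 1789 with Caerulein 100 pM, 954 to 1430 with TLC-S 250 uM and 1122 to 2948 with TLC-S 62.5 uM, against 717 to 1218 in Control, most of it miR-146a-5p. The defining markers miR-223-3p and miR-142a-5p averaged 3.82 and 4.07 CPM, near the level of miR-21a-3p. The 6 stellate and mesenchymal miRNAs, led by miR-143-3p, summed to 11527 to 18773, 12805 to 19289, 11471 to 22877 and 15203 to 19627 CPM in the same order, against 15788 to 16879 in Control. None of these markers was at 0 over a whole group. The 5 islet and neuroendocrine miRNAs, led by miR-375-3p, which acinar cells share, summed to 118159 to 128642 CPM with Caerulein 100 nM, 119284 to 142265 with Caerulein 100 pM, 89507 to 118603 with TLC-S 250 uM and 83725 to 129166 with TLC-S 62.5 uM, against 79329 to 128241 in Control. Of them miR-124-3p had 3 counts in all and was at 0 in the Caerulein 100 pM and Control groups. The other 4 were tested, and 4, 4, 2 and 2 of them were above Control in the same order of groups, with median log2 differences of 0.18, 0.28, -0.0063 and -0.11 and 0, 1, 0 and 1 under an unadjusted p of 0.05. In the 8 comparisons edgeR called 0 of the tested islet, leukocyte, stellate, endothelial, muscle or erythrocyte markers. The leukocyte marker miR-142a-3p, with 52 counts in all, did not pass the filter and was not tested. miR-223-3p and miR-142a-5p had 115 and 117 counts in all, which limits what a missing call means for them. The leukocyte and stellate sums had their highest group medians, 1505 and 19174 CPM, with TLC-S 62.5 uM. Of the 5 tested leukocyte markers 2, 4, 4 and 3 were above Control in the same order of groups, with median log2 differences of -0.37, 0.37, 0.29 and 0.47. Of the 6 stellate and mesenchymal ones 1, 3, 5 and 6 were above Control, with medians of -0.11, -0.0046, 0.063 and 0.13. The 2 endothelial strands of miR-126a were lower than Control in all 4 treated groups (median log2 differences -0.81, -0.33, -0.28 and -0.50), and the 2 muscle miRNAs were higher (0.71, 0.74, 1.56 and 1.60). Both endothelial strands had an unadjusted edgeR p under 0.05 with Caerulein 100 nM, beside 3.42% of all miRNAs, and both muscle miRNAs with TLC-S 62.5 uM, beside 7.41%. Each of the other lists had at most 1 such marker in any comparison. The 2 erythrocyte miRNAs had medians of 0.048, -0.36, -0.072 and -0.16. Their part in the levels of miR-21a was not tested.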

How the data were processed

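Small RNA was sequenced from 15 libraries of mouse pancreatic acini. The submitters' processing notes name cutadapt, Bowtie and the builds GRCm38 and mm10. Tool versions and the read counter were not given in the sources used here. Estimated counts (expected counts) per mature miRNA, already whole, were deposited by the authors, as was a table per precursor with RPM, which matched the counts scaled to the library total within 0.0313; RPM served only for an alternative.

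Groups came from the sample titles. edgeR 4.0.16 (R 4.3.3) fitted 5 group means after filterByExpr (minimum count 10, minimum total 15) and TMM, with glmQLFTest, 10 residual degrees of freedom, a threshold of 0.05 and Benjamini-Hochberg adjustment over the 351 miRNAs tested, which held at least 99.968% of counts per library. SEs were derived from the F statistic. Arm ratios were tested over 89 of 745 hairpins with limma 3.58.1, moderated with a trend over the count of the scarcer arm, and for miR-21a with an exact permutation test. The steps were tested on simulated data. Intervals from counts cover counting error only. RNAfold 2.7.2 folded the hairpin. RefSeq names matched 1623 of 1915 rows.

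The members and lists were chosen with earlier results of these data known. Named besides both arms were the 5 tested miRNAs with the highest Pearson correlation with each, miRNAs sharing their seed or named miR-21b or miR-21c, the hairpins most weighted to each arm or with the smallest arm ratio p against Control, and the 4 most abundant of the inflammation and stress list. That list held miR-155-5p, miR-146a-5p, miR-146b-5p, miR-223-3p, miR-221-3p, miR-222-3p, miR-132-3p, miR-212-3p, miR-34a-5p, miR-31-5p, miR-203-3p and miR-27a-3p. Alternatives were other scalings, other filters, robust dispersion, DESeq2 1.42.0, limma on log2(RPM + 1), a replicate block, 2 groups alone, other additions to the arm counts, and leaving out each library.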

Additional observations from a re-analysis of the deposited data

How the results depend on the processing

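No pairwise difference of either arm or their ratio passed the threshold under any alternative. miR-21a-3p was above Control in 24 of 24, 25 of 25 and 25 of 25 alternatives with Caerulein 100 nM, Caerulein 100 pM and TLC-S 250 uM. Without the filter its F statistic over the 5 groups was 5.37 (edgeR adjusted p = 0.0309 over 867 miRNAs, whose share called was not counted). With the filter, leaving out single libraries gave 2.54 to 5.98 (edgeR adjusted p 0.131 to 0.968). A mean CPM of at least 10 removed miR-21a-3p, as did 2 groups alone in 3 comparisons.

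Signs turned only for differences of at most 0.64. With library totals, miR-21a-3p with TLC-S 62.5 uM against Control was 0.11, and miR-21a-5p was 0.074 with Caerulein 100 nM and -0.086 with Caerulein 100 pM against Control, 0.16 between the caerulein doses and -0.062 between the TLC-S doses. limma on log2 RPM gave 0.053, -0.094, 0.15 and -0.016 for the last 4. For Caerulein 100 nM against Control, miR-21a-5p was 0.024 with upper quartile scaling and 0.0080 with 2 groups alone. The arm ratio was -0.040 for TLC-S 62.5 uM against Control with 0.1 added to each arm, and 0.087 for Caerulein 100 nM against TLC-S 250 uM as the edgeR term of arm by group. The cause was not tested. Library totals shifted the median of all miRNAs by -0.24 (Caerulein 100 pM) and 0.10 (TLC-S 62.5 uM) against Control, by 0.29 between the caerulein doses and by -0.35 between Caerulein 100 pM and TLC-S 62.5 uM.

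Without single libraries the 3p difference was 1.00 to 2.76 for Caerulein 100 nM against Control, -0.58 to 0.48 for TLC-S 62.5 uM against Control, -0.53 to 1.18 between the caerulein doses and -0.61 to 1.10 for Caerulein 100 nM against TLC-S 250 uM. The 5p difference was -0.22 to 0.16 and -0.044 to 0.34 for Caerulein 100 nM and Caerulein 100 pM against Control, -0.35 to 0.057 between the caerulein doses and -0.16 to 0.31 between the TLC-S doses. The arm ratio difference was -0.77 to 1.18 for TLC-S 62.5 uM against Control, -0.14 to 1.01 between the caerulein doses and -0.51 to 0.64 for Caerulein 100 nM against TLC-S 250 uM.

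Replicates were numbered in accession order, which follows 3 runs of sample codes in the labels, each over all 5 groups. The labels do not say what a run marks. Of the pairs with number 1, 2 or 3, 7, 3 and 5 of 10 correlated over 0.1, and 11 of 15 libraries correlated best with their own number, a hint from the data, not the design. In TMM-scaled CPM, miR-21a-3p was above the same-numbered Control in 1 of 3 TLC-S 62.5 uM libraries and 3 of 3 in each other treated group. As a share of library totals TLC-S 62.5 uM replicate 3 was also above its Control (0.000552% against 0.000386%). Other miRNAs were not so counted. With the replicate block, miR-21a-3p was 2.03, 1.72 and 1.60 above Control with Caerulein 100 nM, Caerulein 100 pM and TLC-S 250 uM (edgeR adjusted p from 0.152 to 0.998), its F statistic was 5.90 (adjusted p = 0.0610), and miR-21a-5p was -0.032 between the TLC-S doses.

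For TLC-S 62.5 uM against Control, 2 miRNAs were called, against 4 with DESeq2, 5 without the filter, 5 with the block, 1 with library totals and 0 with limma or 2 groups alone. For TLC-S 250 uM against 62.5 uM, 4 were called, against 2 with RLE, upper quartile or removal of the 3 most abundant miRNAs and 1 at a mean CPM of at least 10. For Caerulein 100 pM against TLC-S 62.5 uM, 5 were called, against 9 without the filter, 14 with the block, 10 with DESeq2 and 2 with 2 groups alone. Caerulein 100 nM against Control or TLC-S 250 uM gave 0, or 1 with DESeq2. Without single libraries there were 1 to 3, 1 to 4 and 2 to 11 calls in the first 3 of these comparisons. Depth limits the 3p arm (1 to 136 counts per library).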
